A study of Mus musculus with 6 samples.

Results

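Serpins are a family of protease inhibitors that share one fold. An inhibitory serpin offers its target an exposed loop as bait, and once the protease cuts the loop the serpin changes shape and traps the enzyme in a covalent complex. The family is divided into clades by letter. Clade A holds the antitrypsin-like plasma serpins made mostly by the liver, clade B holds serpins that lack a classical signal peptide and stay largely inside cells, and the smaller clades include inhibitors of coagulation (C and D), of fibrinolysis (E and F), of complement (G), the collagen chaperone Hsp47 (H) and the neuroserpins (I). Several members have lost inhibition and do other work, among them maspin (*Serpinb5*), PEDF (*Serpinf1*) and Hsp47 (*Serpinh1*). In the mammary gland maspin is a known product of epithelial and myoepithelial cells.

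The family was taken as every gene whose symbol in the platform annotation is Serpin, a clade letter from a to i and a number, read only from probe sets with that symbol alone. This gave 48 genes of 18820 genes on the array, each with 1 probe set. They are 15 genes of clade A, 24 of clade B, 1 each of clades C, D, E, G and H, and 2 each of clades F and I. The rule used symbols and no measured value. Of 69 serpin entries in RefSeq, 21 are not among the 48. Of these, 4 lie only on probe sets that also carry a paralog's symbol, and 17 were not analysed here. The clade E gene measured is *Serpine3*.

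EpRas cells derive from EpH4, a mouse mammary epithelial line of BALB/c background, by stable overexpression of Ha-Ras, and both groups carry that oncogene. Control cells (3 arrays) received no TGF-β1, and long-term EMT cells (3 arrays) received it at 2 ng/ml over 14 days. EMT is epithelial-mesenchymal transition. All 6 samples come from one line. The study's methods describe the array samples as triplicates and, for its data in general, speak of independent experiments, without saying whether the arrays of a group were separate cultures. The p-values therefore cover only the spread between these samples, which may be technical. Values are log2 values made by the authors with Robust Multi-array Average (RMA), and 1 log2 unit is a 2-fold difference. Groups were compared with limma across all 35556 probe sets with Benjamini-Hochberg adjustment. "Rose" and "fell" mean an adjusted p under 0.05 with a fold above 1.5, and all adjusted p-values below are from this fit. A gene was called above background where the mean of either group exceeded 4.47, the 95th percentile of 1006 olfactory receptor probe sets. Levels of different genes come from different probes and were not compared.

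Control replicate 1 stood apart from the other controls, with r = 0.987 and 0.984 to them against 0.995 between those 2. Over the serpins above background its median was 5.84, against 5.30 and 5.49 in control replicates 2 and 3 and 5.11 to 5.26 in long-term EMT cells, so values without it are given where they matter. The cells carried keratins of simple epithelium in both groups (*Krt8* at a mean of 12.79 in each), while *Cdh1*, *Epcam* and *Krt14* fell, which made 3 of 6 mammary epithelial markers. None of 6 hepatocyte, 6 macrophage, 6 endothelial or 6 fibroblast markers passed. The summed hepatocyte level, as log2, was 6.77 to 6.86 in control and 6.83 to 6.88 in long-term EMT cells, with 5 of 6 markers below background, *Alb*, *Ttr* and *Apob* among them. The macrophage sum was 8.67 to 9.48 and 8.85 to 9.47, with 3 of 6 markers above background (*Cd68*, *Csf1r* and *Ptprc*) and *Adgre1* and *Itgam* below it. The endothelial sum was 7.07 to 7.13 and 7.12 to 7.25, with 3 of 6 above background (*Vwf*, *Cldn5* and *Tie1*) and *Pecam1* and *Kdr* below it. The fibroblast sum went from 10.28 to 10.83 in control cells to 9.43 to 9.83 in long-term EMT cells, with 5 of 6 above background. The part of these levels in the serpin values was not tested.

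Of the 48 serpin genes, 3 differed between the groups by this test. *Serpinb5* and *Serpinb8* fell, and *Serpinf1* rose. The other 45 did not pass. Over the whole array 1.92% of probe sets passed in either direction, 0.993% higher and 0.928% lower, and with 1 probe set per gene it was 2.96% of genes. Only 16 of the 48 serpins, 33.3%, lay above background, where 71.3% of all genes did. Of genes above background 4.14% passed, 2.04% higher and 2.09% lower, and of the 16 serpins 1 rose and 2 fell, counts too small to set apart from those shares. The median difference over the 48 was 0.03 on the log2 scale, and over all genes it was 0.02. For 13 serpins the 3 long-term EMT arrays lay entirely beyond the 3 control arrays, 9 above and 4 below, against 19.2% of all probe sets, 10.5% above and 8.68% below, and 24.1% of genes. Of the 16 above background it was 7, against 29.3% of genes above background. At an unadjusted p under 0.05 with the same fold, 6 serpins would be called, all above background, where the same rule would call 4.78% of probe sets, 6.59% of genes and 9.23% of genes above background.

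**Figure D1:**
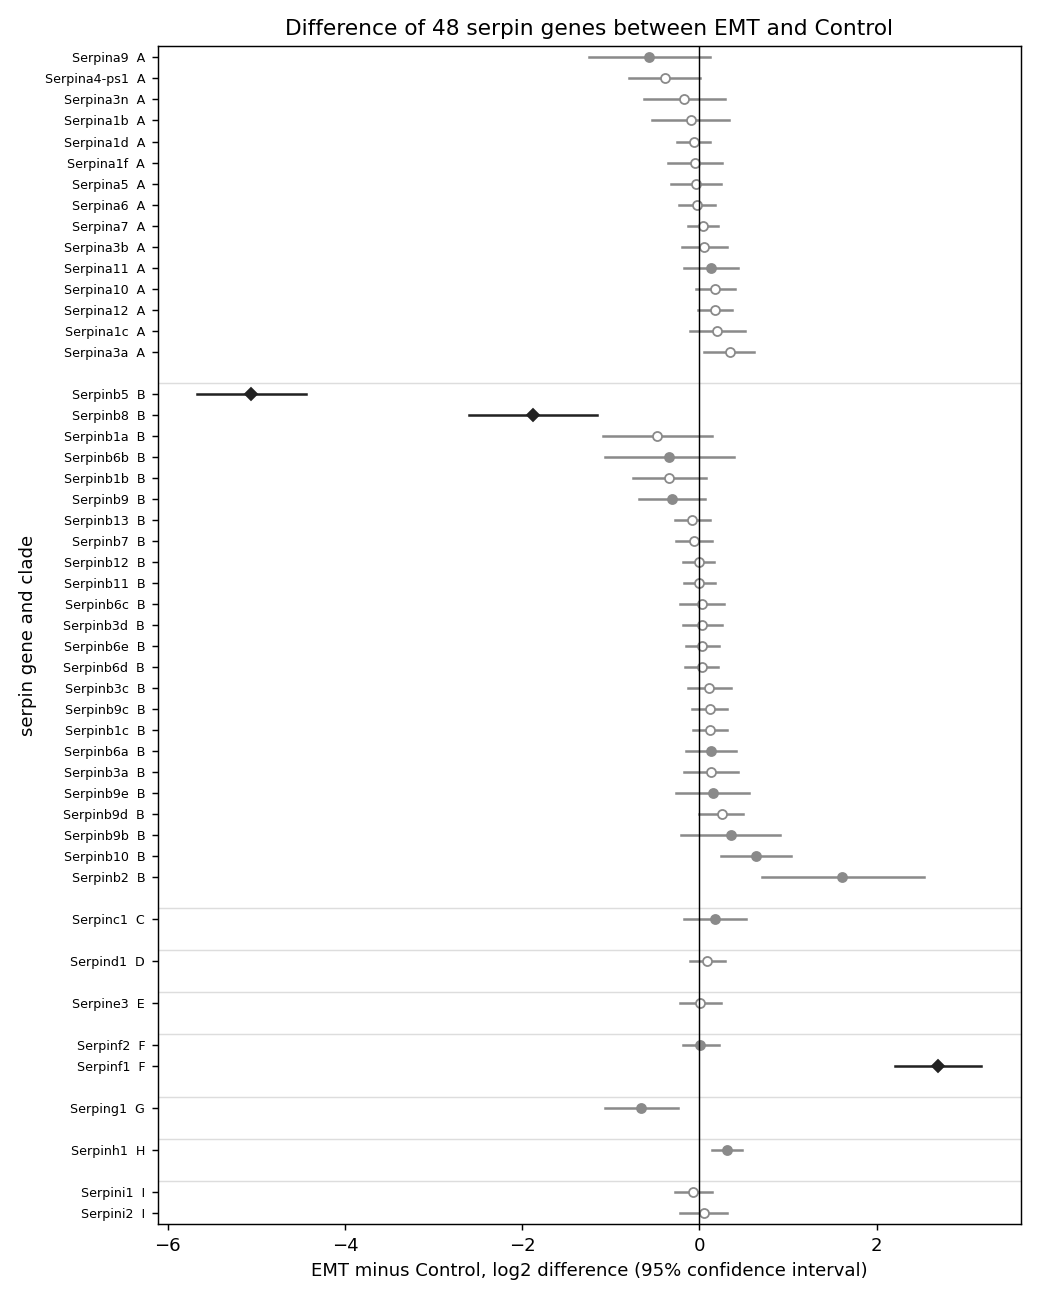
Log2 difference between long-term EMT and control cells for each of the 48 serpin genes (horizontal axis), grouped by clade, with the 95% confidence interval from limma. Black diamonds passed the test, grey circles did not, and open symbols are genes below background in both groups. *Serpinb5* at -5.06 and *Serpinf1* at 2.69 lie furthest from 0. *Serpinb8* at -1.88 passed and *Serpinb2* at 1.61 did not, and most other members lie near 0.

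*Serpinb5* encodes maspin, a clade B serpin that does not inhibit serine proteases and is widely studied as a suppressor of mammary tumour growth. Its 250 bases before the annotated start are shown because it fell furthest of the family. They are from RefSeq on GRCm38.p6, chr1:106860925-106861174, plus strand, with 3 motifs in capitals, in order CAGACA (the Smad box), TGANTCA (AP-1) and CAGGTG (the E2 box that Zeb and Snail factors bind).
Serpinb5: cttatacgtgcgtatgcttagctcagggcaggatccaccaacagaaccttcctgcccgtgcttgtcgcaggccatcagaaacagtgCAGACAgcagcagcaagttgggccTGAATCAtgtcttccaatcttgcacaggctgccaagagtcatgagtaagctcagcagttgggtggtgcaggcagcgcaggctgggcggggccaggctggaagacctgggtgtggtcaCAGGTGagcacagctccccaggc
The motifs begin 164, 140 and 23 bases before the start.

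Control replicates 1, 2 and 3 had *Serpinb5* values of 8.99, 8.85 and 9.02, and long-term EMT replicates 1, 2 and 3 had 4.16, 3.29 and 4.24. Control cells were close to each other, and every long-term EMT array was below the background level. The difference of -5.06 log2 units passed (standard error 0.25, 95% confidence interval -5.67 to -4.44, adjusted p = 0.0014). Because the long-term EMT values lie in the background, the fall is a bound, and the control level was at least 22.3-fold higher, or 4.48 log2 units. *Serpinb5* passed whichever array was left out, with differences between -5.23 and -4.75, and without control replicate 1 it was -5.04. In a bulk sample, fewer cells that express a gene and less RNA per cell cannot be told apart.

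*Serpinb8* encodes an intracellular serpin that can inhibit furin and thrombin. A stretch of 30 bases of its promoter window is shown for the AP-1 motif in capitals (RefSeq, GRCm38.p6, chr1:107589972-107590001, plus strand), which begins 23 bases before the annotated start of the window's transcript.
Serpinb8: tgtgggaagtgTGAGTCAcagagtgttcaa
The control arrays read 8.86, 8.27 and 7.74, and the long-term EMT arrays read 6.28, 6.75 and 6.20. The groups did not overlap, the controls were more spread than the treated samples, and all 6 values stayed above background. *Serpinb8* fell 3.68-fold, a difference of -1.88 log2 units (standard error 0.30, adjusted p = 0.0347). This call depended on single arrays. It remained without control replicate 1 (difference -1.59) or control replicate 3 (-2.15), and was lost without control replicate 2 (adjusted p = 0.136) or without long-term EMT replicate 1, 2 or 3 (0.139, 0.1 and 0.149).

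*Serpinf1* encodes PEDF, a secreted glycoprotein known as an inhibitor of blood vessel growth, which is not a protease inhibitor and binds collagen. The 250 bases before its start are given as those of the one member that rose, on the minus strand of chr11:75422624-75422873 (RefSeq, GRCm38.p6), with a CAGACA box in capitals 38 bases before the start.
Serpinf1: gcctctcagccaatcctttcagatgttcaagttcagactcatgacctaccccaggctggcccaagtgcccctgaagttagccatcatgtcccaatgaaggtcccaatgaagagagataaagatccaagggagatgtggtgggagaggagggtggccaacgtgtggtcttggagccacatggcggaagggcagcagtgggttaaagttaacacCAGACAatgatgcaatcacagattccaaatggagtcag
Its values were 6.67, 6.73 and 6.62 in control cells and 8.93, 9.74 and 9.43 in long-term EMT cells. The 3 controls were close together, and the lowest treated sample was far above the highest control. *Serpinf1* rose by 2.69 on the log2 scale, 6.47-fold (standard error 0.20, 95% confidence interval 2.21 to 3.18, adjusted p = 0.00338). Its call was kept whichever array was removed, with differences from 2.51 to 2.91, and the difference without control replicate 1 was 2.69.

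The neighbour of *Serpinf1* on chromosome 11, *Serpinf2*, encodes α2-antiplasmin, the main plasma inhibitor of plasmin. It read 5.01, 5.11 and 5.18 in control and 5.02, 5.18 and 5.14 in long-term EMT cells, and the groups overlapped. Its difference was 0.01 (95% confidence interval -0.19 to 0.22, adjusted p = 0.975), and whether the clade F genes differ in response was not tested. The 3 nearest measured genes on either side outside the family (*Rtn4rl1*, *Rpa1*, *Smyd4*, *Wdr81*, *Tlcd2* and *Prpf8*, chosen after the values were seen) had differences between -0.13 and 0.25, and none passed.

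**Figure D2:**
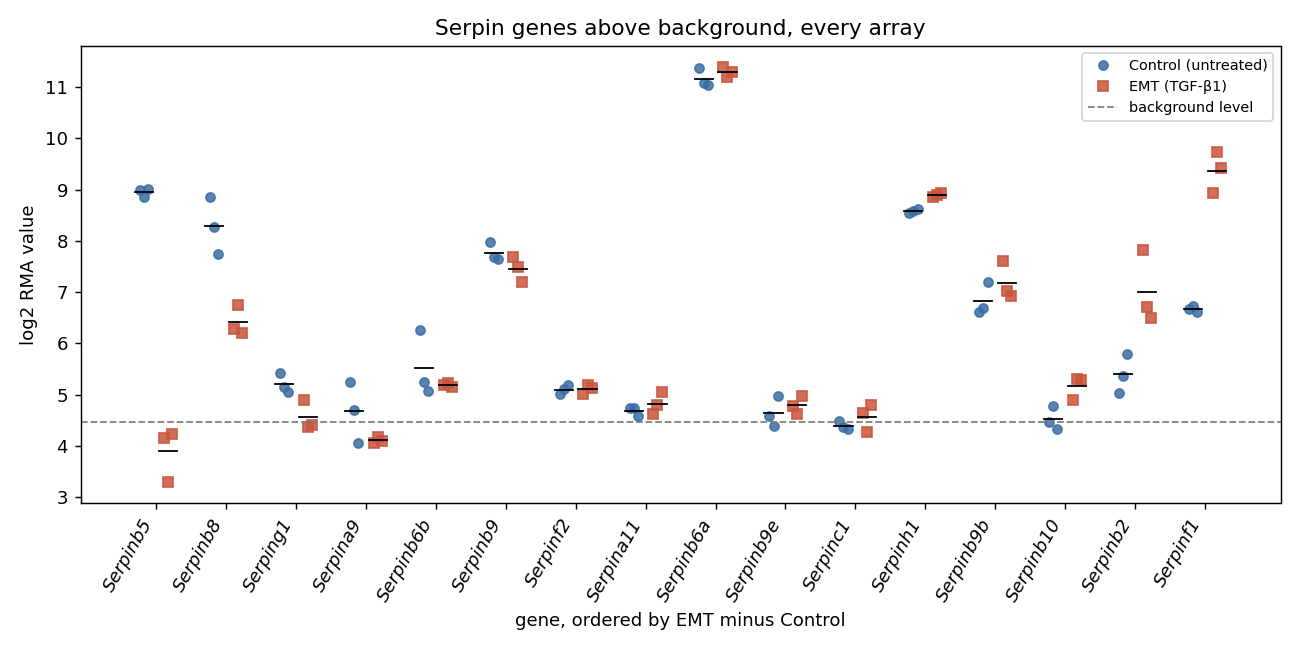
Log2 RMA value of the 16 serpin genes above background on each array, with control arrays as circles (n = 3), long-term EMT arrays as squares (n = 3), group means as black bars and the background level of 4.47 as a dashed line. The 3 treated *Serpinb5* values lie under the background line, *Serpinf1* lies higher in all 3 treated samples, and values of different genes are not comparable.

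The other clade B genes above background were *Serpinb2*, *Serpinb10*, *Serpinb6a*, *Serpinb6b*, *Serpinb9*, *Serpinb9b* and *Serpinb9e*. *Serpinb2* encodes PAI-2, an inhibitor of urokinase. Its control values were 5.04, 5.36 and 5.80 and its long-term EMT values 7.83, 6.71 and 6.50. All treated samples lay above all controls, with long-term EMT replicate 1 the highest. The difference of 1.61 on the log2 scale (standard error 0.38, 95% confidence interval 0.70 to 2.53) did not pass, with an adjusted p of 0.111 and an unadjusted p of 0.00462. Without long-term EMT replicate 1 the difference was 1.20.

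*Serpinb10* encodes bomapin, a serpin of blood-forming cells. It read 4.47, 4.78 and 4.33 in control cells and 4.90, 5.31 and 5.28 in long-term EMT cells, and the groups did not overlap. The difference was 0.64 (standard error 0.16, adjusted p = 0.141). The values sit close to the background level of 4.47.

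*Serpinb6a*, an intracellular inhibitor of trypsin-like proteases and cathepsin G, had control values of 11.37, 11.09 and 11.04 and long-term EMT values of 11.40, 11.19 and 11.30. The groups overlapped and the interval of the difference was narrow, at 0.13 (95% confidence interval -0.15 to 0.41, adjusted p = 0.733). *Serpinb9*, the inhibitor of granzyme B, read 7.98, 7.68 and 7.65 against 7.68, 7.50 and 7.20, with overlapping groups and a difference of -0.31 (95% confidence interval -0.68 to 0.06, adjusted p = 0.475). Granzyme B itself (*Gzmb*) was below background in both groups, at means of 3.56 and 3.55.

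*Serpinb9b* and *Serpinb9e*, rodent relatives of *Serpinb9*, had differences of 0.35 and 0.15, and the groups overlapped for both. *Serpinb6b* read 6.26 in control replicate 1 but 5.24 and 5.08 in the other controls, and 5.19, 5.22 and 5.15 in long-term EMT cells. Its difference of -0.34 (adjusted p = 0.731) rested on that one array, and without it the difference was 0.03. The *Serpinb6* and *Serpinb9* paralogs are close in sequence, so their probes may share signal. The 3 probe sets that carry several *Serpinb9* symbols had differences of 0.07 to 0.22 and none passed.

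The remaining 15 clade B genes lay below background in both groups, with differences between -0.48 and 0.25. They include *Serpinb1a*, a neutrophil elastase inhibitor, which read 4.64 in control replicate 1 and 3.83 and 3.69 in the others, and the squamous epithelium serpins *Serpinb3a*, *Serpinb12* and *Serpinb13*.

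The 11 measured *Serpinb* genes of chromosome 1 lie in one cluster, with *Serpinb5* at one end and *Serpinb8* at the other, in the gene order of RefSeq (GRCm38.p6). The 2 genes that fell are the outermost members. The 7 genes that follow *Serpinb5*, from *Serpinb12* to *Serpinb7*, were below background and had differences between -0.08 and 0.13. Then come *Serpinb2* and *Serpinb10*, whose treated samples lay above the controls, and *Serpinb8* next to them, whose treated samples lay below. Beyond the cluster, the nearest measured genes on the *Serpinb5* side, *Vps4b*, *Kdsr* and *Bcl2*, had differences of 0.11, 0.24 and -0.47 (adjusted p = 0.611, 0.224 and 0.0517), and on the *Serpinb8* side *Cdh7*, *Cdh19* and *Dsel* had 0.00, -0.09 and -0.01. None of these 6, chosen after the values were seen, passed.

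The clade B cluster of chromosome 13 holds 13 measured genes. None passed, and their differences ran from -0.48 to 0.35. The clade A cluster of chromosome 12 holds 14, with differences from -0.57 to 0.34 and none that passed.

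**Figure D3:**
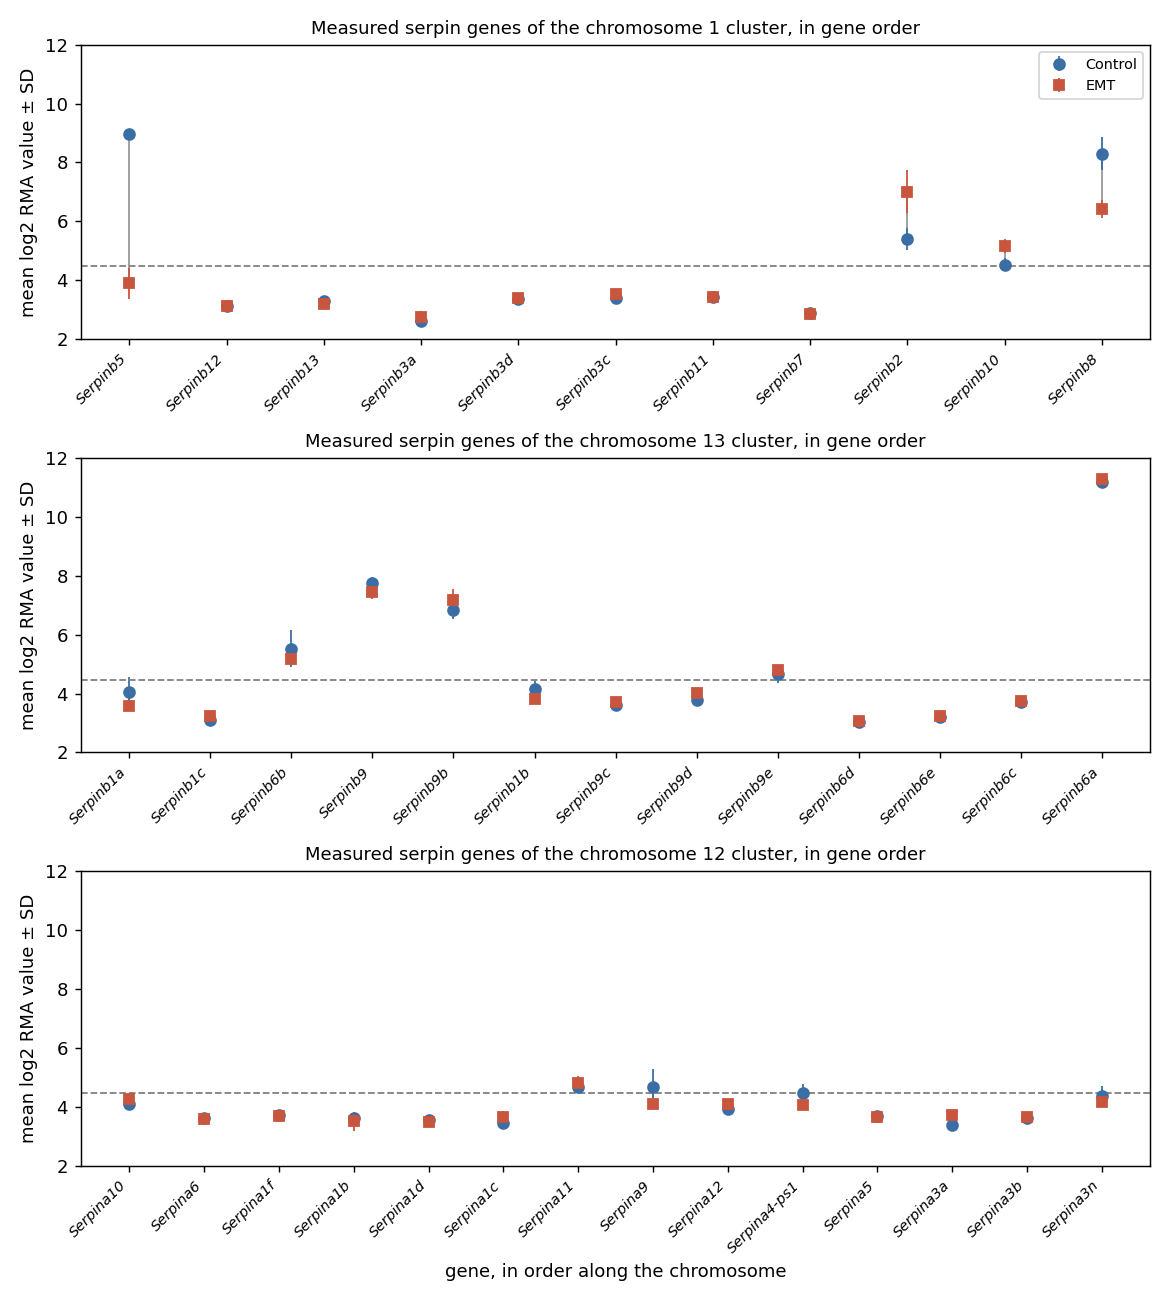
Mean log2 RMA value with SD (n = 3 per group) of the measured serpin genes in the clusters of chromosomes 1, 13 and 12, in order along the chromosome, for control (circles) and long-term EMT cells (squares), with the background level dashed. In the chromosome 1 cluster the groups part at *Serpinb5* and *Serpinb8*, which are lower, and at *Serpinb2*, which is higher without passing the test, while 7 genes in between lie below background.

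Clade A lay mostly below background in the probe sets of a single symbol. Of its 15 genes, 2 had a group mean above background, *Serpina11* and *Serpina9*, and 13 did not, with *Serpina3n*, the inducible antichymotrypsin-like serpin, and the antitrypsin genes *Serpina1b*, *Serpina1c* and *Serpina1d* among the latter. *Serpina11* read 4.75, 4.74 and 4.58 in control and 4.62, 4.80 and 5.05 in long-term EMT cells (difference 0.13, adjusted p = 0.754). *Serpina9*, known as centerin of germinal centre B cells, was 5.25, 4.71 and 4.06 in the 3 controls and 4.05 to 4.17 in the treated samples, a difference of -0.57 (adjusted p = 0.477) that was -0.28 without control replicate 1. For *Serpina3a*, *Serpina10* and *Serpina12* all treated samples lay above all controls, by 0.34 or less, and for *Serpina4-ps1* all lay below (difference -0.39), each with group means below background. These are 4 of 15 clade A genes, against 24.1% of all genes, but 71.3% of all genes lay above background. The share among genes below background alone was not counted. The 2 probe sets shared by several *Serpina1* genes did lie above background. Their control and long-term EMT means were 4.37 and 4.49 for 1 and 5.01 and 5.09 for the other. Their differences were 0.12 and 0.08, and neither passed.

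The coagulation serpins lay near the background level. *Serpinc1* (antithrombin) had group means of 4.40 and 4.57 and *Serpind1* (heparin cofactor II) of 4.26 and 4.35, with adjusted p = 0.717 and 0.738. *Serpine3* had means of 4.40 and 4.41. The neuroserpin gene *Serpini1* and its relative *Serpini2* were below background, with differences of -0.07 and 0.05.

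*Serping1* encodes C1 inhibitor, which controls the complement proteases C1r and C1s as well as plasma kallikrein and coagulation factor XII. Its control values were 5.42, 5.16 and 5.06 and its long-term EMT values 4.89, 4.37 and 4.41. Every treated sample lay below every control, and 2 of the 3 were under the background level. The difference of -0.66 (standard error 0.17, unadjusted p = 0.0077) did not pass, with an adjusted p of 0.146.

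Of its target proteases, *C1ra* had control values of 6.87, 6.06 and 5.83 and long-term EMT values of 4.72, 4.67 and 4.64, and fell by 1.58 (standard error 0.26, adjusted p = 0.0391). *C1s1* read 9.17, 7.85 and 6.84 against 5.70, 4.93 and 4.52. The groups did not overlap, but the controls spanned more than 2 log2 units and the difference of -2.90 did not pass (adjusted p = 0.0809). *Masp1*, a protease of the lectin pathway that C1 inhibitor also controls, went the other way by value, with a difference of 0.93 (adjusted p = 0.117) and all treated samples above all controls. Factor XII (*F12*) overlapped between the groups, with a difference of 0.05. Control replicate 1 was the highest array for *Serping1*, *C1ra* and *C1s1*.

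*Serpinh1* encodes Hsp47, the chaperone of the endoplasmic reticulum that binds newly made procollagen. The control arrays read 8.54, 8.59 and 8.63 and the long-term EMT arrays 8.86, 8.90 and 8.93. The groups were tight and did not overlap. The difference was 0.31, or 1.24-fold (95% confidence interval 0.14 to 0.48), which is under the fold threshold, and its adjusted p was 0.105. With single arrays removed it stayed between 0.29 and 0.33.

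Hsp47 works with a set of collagen genes and modifying enzymes, of which 26 of 29 listed were measured. Of these, 2 rose, 3 fell and 21 did not pass, where 2.96% of all genes and 4.14% of genes above background passed. In this list 25 lay above background, and the median difference was 0.08 against 0.02 over all genes. *Bmp1*, a procollagen C-proteinase, rose by 0.67 (adjusted p = 0.0259) and *Col5a3* by 0.64 (adjusted p = 0.0327). *Col6a1* fell by 2.75, the prolyl 3-hydroxylase gene *P3h2* by 2.11 and *Pcolce*, the enhancer of the C-proteinase, by 0.91 (adjusted p = 0.0142, 0.0178 and 0.0494). *Kdelr3*, one of the receptors that return Hsp47 to the endoplasmic reticulum, rose by 0.74 (adjusted p = 0.0332), while *Kdelr1* and *Kdelr2* had differences of -0.15 and 0.06. Of 6 refits with a single array removed, *Bmp1*, *Col5a3* and *Kdelr3* passed in 1 each, *Col6a1* in 3, *P3h2* in 2 and *Pcolce* in 0.

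Serpins act on proteases, and 32 of 37 listed target proteases were measured. Of these, 16 lay below background, with thrombin (*F2*), neutrophil elastase (*Elane*), cathepsin G (*Ctsg*) and the granzyme genes *Gzma*, *Gzmb* and *Gzmm* among them. Of the 32, 1 rose, 3 fell and 28 did not pass, where 2.96% of all genes and 4.14% of genes above background passed. The median difference of the list was 0.03. *Furin*, a target of *Serpinb8*, rose from values of 10.08, 9.91 and 9.85 to 10.56, 10.70 and 10.67, a log2 difference of 0.70 (standard error 0.09, adjusted p = 0.0203). *Serpinb8* fell in the same samples, and a relation between these changes was not tested. Matriptase (*St14*) fell by 3.97 (adjusted p = 0.00224) and prostasin (*Prss8*) by 1.30 (adjusted p = 0.0294). With single arrays removed, the call for *Furin* remained in 1 of 6 refits, that for *Prss8* in 1, that for *C1ra* in 2 and that for *St14* in all 6.

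The plasminogen system is where clade B and clade F serpins meet urokinase and plasmin. Of 18 measured genes of this system, 15 of them above background, 2 rose, 1 fell and 15 did not pass. Over the array 2.96% of all genes and 4.14% of genes above background passed. The median difference of the 18 was 0.04. Urokinase (*Plau*), the target of PAI-2, had values of 10.75, 10.30 and 10.08 in control and 11.36, 10.65 and 10.32 in long-term EMT cells, and the groups overlapped (difference 0.40, adjusted p = 0.668). Its receptor *Plaur* had a difference of 0.27 (adjusted p = 0.441). Tissue plasminogen activator (*Plat*) read 8.10 in control replicate 1 against 5.73 and 5.80 in the other controls, and its difference of -1.30 did not pass (adjusted p = 0.505) and was -0.52 without that array. Of the endocytic receptors that clear serpin and protease complexes, *Lrp1* rose by 0.69 (adjusted p = 0.0387) and *Vldlr* fell by 1.65 (adjusted p = 0.0434). *Itgb3*, a subunit of the vitronectin receptor, rose by 2.93 (adjusted p = 0.00838). With single arrays removed, *Itgb3* passed in 4 of 6 refits, *Vldlr* in 2 and *Lrp1* in 0.

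Of 14 measured cofactors and receptors of serpins, 12 of them above background, 2 rose, *Lrp1* and *Kdelr3*, and none fell. Over the array 2.96% of all genes and 4.14% of genes above background passed. *Pnpla2*, which encodes a receptor of PEDF, had a difference of -0.34 (adjusted p = 0.128), with all treated samples below all controls, and *Rpsa*, the laminin receptor to which PEDF also binds, one of -0.03.

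Of 37 measured genes listed for other inhibitor families and proteins with inhibitor-like domains, 2 rose, 4 fell and 31 did not pass. Over the array 2.96% of all genes and 4.14% of genes above background passed. In this list 26 lay above background, and the median difference was -0.05. *Slpi*, a secreted inhibitor of leukocyte elastase, fell from 10.82, 10.25 and 9.60 to 7.40, 6.64 and 5.93, by 3.57 on the log2 scale (adjusted p = 0.016). *Timp3*, an inhibitor of metalloproteases, fell by 2.85 (adjusted p = 0.0165), *Spint2*, a Kunitz inhibitor of matriptase, by 1.91 (adjusted p = 0.0308) and *Kazald1* by 1.82 (adjusted p = 0.0383). *Timp1* rose by 0.80 (adjusted p = 0.0416) and *Sparc*, a matricellular protein with a Kazal-like domain, by 0.65 (adjusted p = 0.0496). *Slpi* and *Timp3* passed in 3 of 6 such refits, *Spint2* in 2, *Kazald1* in 1 and *Timp1* and *Sparc* in 0. Whether these families differ from the serpins was not tested.

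**Figure D4:**
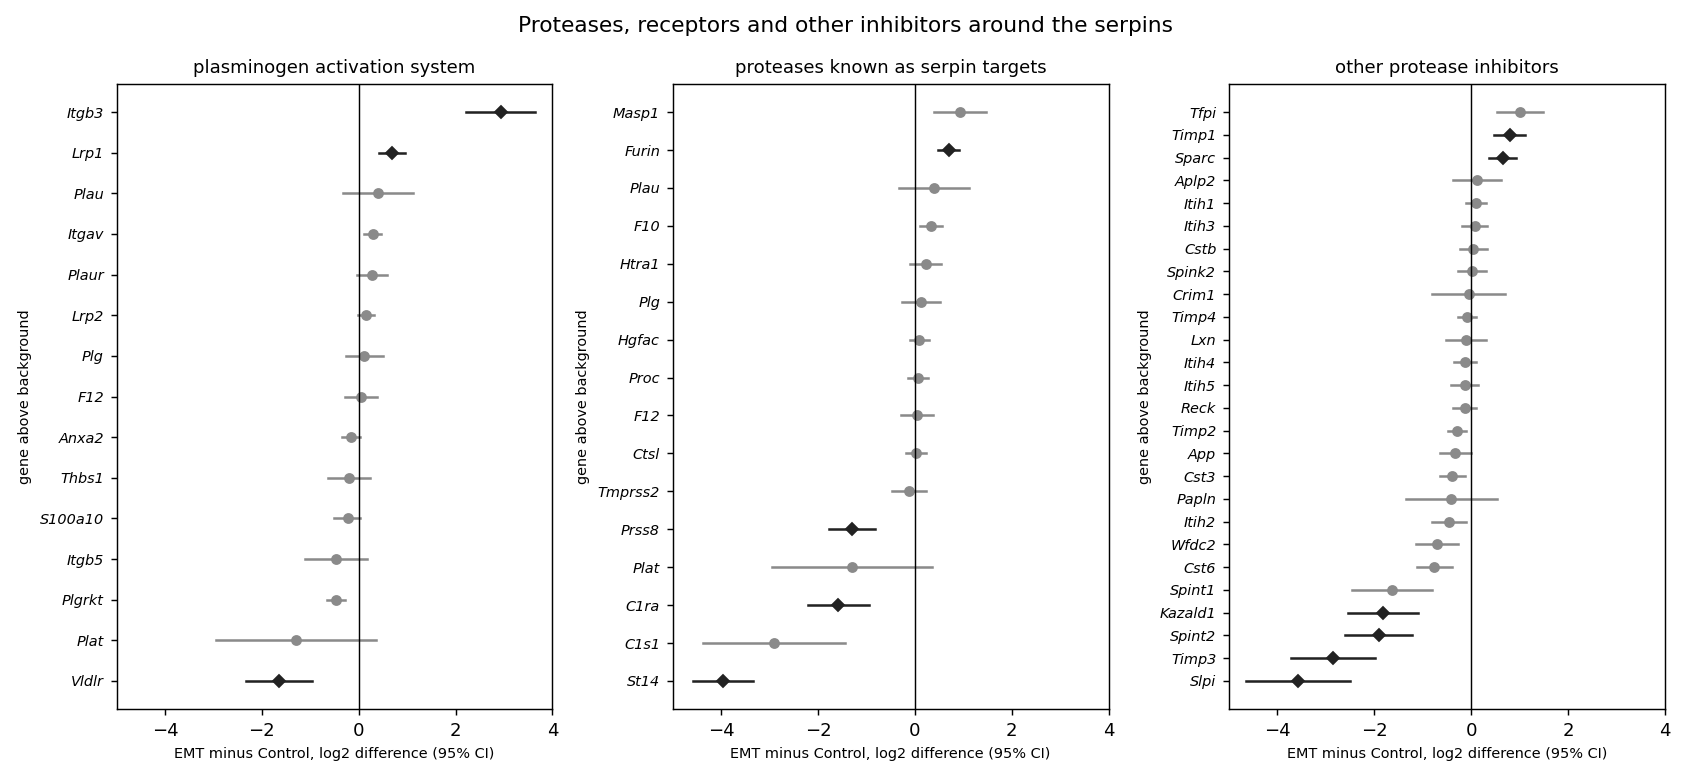
Log2 difference between long-term EMT and control cells, with 95% confidence interval from limma, for the genes above background in 3 lists around the serpins. Black diamonds passed the test and grey circles did not. *St14* at -3.97 and *Slpi* at -3.57 lie lowest and *Itgb3* at 2.93 highest, while *Plau*, the target of PAI-2, has an interval that spans 0.

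Among 22 measured TGF-β target genes, which give the setting of the treatment, 3 rose, 2 fell and 17 did not pass. Over the array 2.96% of all genes and 4.14% of genes above background passed. In this list 21 lay above background, and the median difference was 0.24 against 0.02 over all genes. *Ccn2* rose by 1.79 (adjusted p = 0.00835), *Pmepa1* by 0.86 (adjusted p = 0.0234) and *Ldlrad4* by 0.62 (adjusted p = 0.013). *Itgb6* fell by 2.88 (adjusted p = 0.00191) and *Smad6* by 1.19 (adjusted p = 0.00558). *Itgb6* and *Smad6* passed in 6 of 6 such refits, *Ccn2* in 4, *Ldlrad4* in 2 and *Pmepa1* in 1.

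The bases before the gene starts were searched on both strands for the letters of 5 motifs. RefSeq windows were matched to 41 of the 48 serpin genes, in 49 windows of 250 bases, and compared with all 32851 windows. TGANTCA was in 11 serpin windows, 22.4%, against 6.75% of all windows, and all 11 belong to the chromosome 1 cluster (*Serpinb5*, *Serpinb12*, *Serpinb11*, *Serpinb7*, *Serpinb10*, *Serpinb8* and 2 overlapping windows of *Serpinb2*) or to the paralogs *Serpina1b*, *Serpina1c* and *Serpina1d*. Members below background carry it as well as those that fell. CAGGTG was in 26.5% of serpin windows and 17.2% of all windows, CAGACA in 18.4% and 17.1%, and TATAAA in 28.6% and 12.4%. AACCGGTT (the Grainyhead motif) was in none of the 49 and 0.116% of all. Paralogs and overlapping windows recur in these counts, such as 2 windows of *Serpinb2* for TATAAA and 2 of *Serpinb6d* for CAGGTG. Of the 17 windows of serpins above background, 5 held TGANTCA, 5 CAGACA, 2 CAGGTG and 2 TATAAA. No 2 of these motifs overlap in letters in the stretches printed above. A match of letters is a description of the window and does not show that a factor binds there.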

How the data were processed

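Total RNA of 6 EpRas samples was hybridized by the authors to MoGene-1_1-st-v1 arrays, 1 per sample. Per the paper's methods and the submitters' processing notes, the deposited log2 values are RMA values from Affymetrix Expression Console (version not given in the sources used here), and they were used as deposited, for 35556 probe sets. Of these, 21218 have 1 gene symbol, 1881 several and 12457 none.

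Groups follow the sample titles. The difference between the groups was tested two-sided in limma 3.58.1 (lmFit and eBayes, R 4.3.3), without a block. Where a gene had more than 1 probe set, the highest mean over the 6 arrays chose it, and each serpin has 1. Signal over background and 3 arrays per group limit the precision, and no read depth applies. The serpins named are those that passed, those above background and 4 fixed members that were measured, and for each pathway list up to 6 members that passed. Other genes are named as examples. The members, lists and tests were chosen with earlier results of these data known. Alternatives were a replicate block, a trended and robust prior, t-tests, 2 other normalizations, a filter on dim probe sets, no fold threshold, the mean of a gene's probe sets, a background set at other percentiles and the removal of single arrays. Figures were drawn with matplotlib 3.10.9.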

Additional observations from a re-analysis of the deposited data

How the results depend on the processing

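*Serpinb5* and *Serpinf1* kept their direction under all alternatives run. *Serpinf1* lost its call under the methods' t-test after Benjamini-Hochberg adjustment (0.072). The t-test at its unadjusted threshold gave 3 serpins higher and 3 lower, adding *Serpinb2*, *Serpinb10* and *Serping1*, and after Benjamini-Hochberg adjustment 0 higher and 1 lower, against 1 and 2 in limma. It gave 638 probe sets higher and 688 lower unadjusted, and 43 and 26 adjusted, against 353 and 330. For pathway list members it gave 18 higher and 18 lower unadjusted, and 1 and 0 adjusted, against 11 and 13. With the replicate number as a block, 1 serpin was lower (*Serpinb8* was lost, adjusted p = 0.0557) and 4 pathway members were higher. Same-numbered samples deviated together with correlations of 0.19, 0.02 and 0.25, and differently numbered pairs had -0.27 to 0.14. For replicates 1 and 3 the same-numbered pair was the highest, while control replicate 2 correlated best with long-term EMT replicate 3 (0.14). Whether the numbers pair the samples was not tested, and the main fit used no block. With dim probe sets left out, 7 serpins did not overlap between groups, against 13, because fewer were tested.

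With 1 array left out, the ranges were 1 to 1 serpin higher, 1 to 2 lower and 13 to 23 without overlap. With fewer arrays a lack of overlap is easier to reach, and its share over all genes was not counted in these refits. The ranges were 107 to 472 probe sets higher (lowest without long-term EMT replicate 2, highest without control replicate 1) and 98 to 482 lower (from the same arrays). For pathway members they were 0 to 12 higher and 4 to 12 lower (lowest without control replicate 2). *Serpinb6b* ran from -0.56 to 0.03, turning without control replicate 1. *Serpinf2*, near 0, ran from -0.03 to 0.06, and was -0.01 after quantile normalization and -0.02 with equal array medians. Of 600 values of 40 named genes under 15 alternatives, 455 kept direction and side of the threshold, 137 lost the call, 3 gained it and 5 turned. The 455 include genes without a call in the main fit, so the 600 are not all calls that could be lost. The cause of the changes was not tested. Signal over background limits the 32 serpins below it.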
